A study of Homo sapiens with 8 samples.

Results

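The genes described here encode the aminoacyl-tRNA synthetases, the enzymes that join each amino acid to its transfer RNA. Members were the rows of the deposited table whose trimmed gene name was one of 36 listed symbols, and all 36 were found among 58735 genes. Of these, 20 encode cytosolic enzymes or subunits and 16 mitochondrial enzymes. The table uses older symbols, so that the cytosolic alanine enzyme is AARS and its mitochondrial counterpart AARS2. The rule uses gene names and no measured value, but the list was drawn up with earlier results of these data known.

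RNA was sequenced from the established cell line LN229, which was derived from a human glioblastoma, in 4 samples exposed for 48 h to bortezomib at 7.5 nM together with panobinostat at 15 nM, and in 4 samples given DMSO, the solvent. Bortezomib inhibits the proteasome and panobinostat inhibits histone deacetylases, and the drug pair is called the combination here. Neither drug was given alone, and a single cell line was used. On 2 points the labels disagree. The controls are listed as untreated in the sample labels and as given DMSO in the treatment text, and brain tissue is named for the RNA extraction although every sample is labelled as the cell line. The labels do not state whether the 4 samples of a group were grown separately. The p-values therefore reflect the spread among these libraries alone, and that spread may be technical.

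A synthetase recognises its amino acid and its tRNA and charges one with the other, which sets the accuracy of translation. Cytosol and mitochondria use largely separate enzymes, all encoded in the nucleus, although GARS and KARS serve both compartments from a single gene, and mitochondrial glutamine tRNA is charged with glutamate by EARS2 and then amidated. Several cytosolic enzymes sit in the multisynthetase complex on the scaffold proteins AIMP1, AIMP2 and EEF1E1. When amino acids run short, the kinase GCN2 (gene EIF2AK4) raises translation of the transcription factor ATF4, which activates many cytosolic synthetase genes, whereas WARS is a well-known target of interferon gamma, with IRF1 among its activators.

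The promoters of the members were searched for the sites of these regulators. In the RefSeq promoter table (GRCh38.p14, from 250 bases before to 50 after a transcript start), 30 of the 36 members were matched by symbol, 16 cytosolic and 14 mitochondrial, with 39 promoters. The ATF4 site called CARE was searched as TGATGNAA, on both strands. It lay in promoters of 7 of the 16 cytosolic genes and of 1 of the 14 mitochondrial genes, YARS2, and in 20.5% of the members' promoters against 3.62% of all 35116 promoters of the table. The windows that hold it are shown because 7 of the 8 genes are cytosolic. They are written 5′ to 3′ on the strand of the gene, with the match in capitals:
AARS, chr16:70289676-70289703, minus strand: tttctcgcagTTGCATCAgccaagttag
CARS, chr11:3057408-3057435, minus strand: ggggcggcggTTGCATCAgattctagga
GARS, chr7:30594835-30594862, plus strand: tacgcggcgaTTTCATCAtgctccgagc
IARS, chr9:92293693-92293720, minus strand: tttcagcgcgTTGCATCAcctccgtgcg
MARS, chr12:57488054-57488081, plus strand: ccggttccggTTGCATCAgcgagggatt
NARS, chr18:57621805-57621832, minus strand: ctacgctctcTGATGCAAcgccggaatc
TARS, chr5:33440957-33440984, plus strand: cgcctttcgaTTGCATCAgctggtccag
YARS2, chr12:32756077-32756104, minus strand: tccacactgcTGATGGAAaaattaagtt

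WARS has 2 promoters in that table, and the downstream one holds both interferon elements searched. The GAS element (TTCNNNGAA, the interferon gamma activated site, in 7.66% of all promoters) began 142 bases before the start and the ISRE (GAAA, any 2 bases and GAAA, in 3.57% of all promoters) 55 bases before it. The stretch is shown because WARS was the member that changed most, with the GAS and the ISRE in capitals in that order:
WARS, chr14:100375378-100375502, minus strand: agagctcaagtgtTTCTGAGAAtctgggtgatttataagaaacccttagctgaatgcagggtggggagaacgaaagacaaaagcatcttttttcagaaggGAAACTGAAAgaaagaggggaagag
The table of expression gives 1 value per gene, so it cannot tell which of the 2 starts was used. A GAS match was also found in CARS, TARS, PARS2 and WARS2, and an ISRE match in EARS2. Over the members' promoters, a GAS match lay in 17.95% and an ISRE match in 7.69%. The GAS site of WARS2 and the ISRE of EARS2 were each counted in both promoters of the gene.

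Sites of factors linked to growth and to mitochondrial genes were searched as well. The NRF1 site (GCGCA, any base and GCGC, in 5.78% of all promoters) was found for SARS, TARS, FARSB, IARS2, MARS2 and PARS2. It lay in 20.5% of the members' promoters, the same share as CARE, but in 6 member genes against 8. The NRF1 sites of SARS and TARS were each counted in both promoters of the gene. The E-box bound by MYC and MAX (CACGTG, in 7.26% of all promoters and 12.8% of the members') was found for IARS, CARS2, EARS2 (counted in its 2 promoters) and MARS2. MARS2, one of the mitochondrial genes that rose, is shown because it carries both an NRF1 site and an E-box, the NRF1 site first:
MARS2, chr2:197705324-197705368, plus strand: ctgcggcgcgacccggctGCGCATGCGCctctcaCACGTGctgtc
Every match is a run of letters and not a measured binding site.

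Levels below are the FPKM values the authors deposited, which relate fragments to gene length and library size, given as mean ± SD over 4 samples. Fold changes are differences of log2(FPKM + 1), the combination minus DMSO, which understate the change of low genes. A gene was called at an adjusted p under 0.05, from limma with Benjamini-Hochberg adjustment over the 13296 genes whose mean reached 1 FPKM. Each library held between 15189251 and 17324292 reads. Mitochondrially encoded genes took 11.7 to 15.1% of reads after the combination and 4.31 to 6.69% in DMSO. Of 6 markers of glioma lines, 5 were detected at 1 FPKM or more, and their summed level was 395 to 417 FPKM after the combination against 1223 to 1242 FPKM in DMSO, with CD44 similar in both. Astrocyte markers summed to 1.37 to 1.95 FPKM after the combination and 0.409 to 0.525 FPKM in DMSO, with SLC1A3 at 1.56 against 0.226 FPKM and GFAP at 0.0414 against 0.220 FPKM. Microglia markers summed to less than 1 FPKM in every sample and AIF1 was at 0 in all. Of 5 oligodendrocyte markers, 2 were detected and called lower, among them MAG (1.33 against 11.7 FPKM). MBP (0.0216 against 0.0215 FPKM), MOG (0.0492 against 0.210 FPKM) and MOBP (0.0101 against 0.00156 FPKM) stayed below 1 FPKM and were not tested. Neuron markers summed to 25.0 to 26.6 against 14.5 to 15.4 FPKM (5 of 6 detected), with 3 called higher, among them SLC17A7 (7.25 against 0.118 FPKM), and SYT1 (3.58 against 4.26 FPKM) and GAD1 (2.49 against 4.22 FPKM) called lower. The sums were 1.56 to 1.99 against 7.91 to 8.62 FPKM for endothelial markers (FLT1 alone detected). The part of these differences in the results on synthetases was not tested. In such bulk RNA, fewer cells of a kind and less RNA per cell cannot be told apart.

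All 20 cytosolic genes and 15 of the 16 mitochondrial genes passed the filter on low values. SARS2, for mitochondrial serine, did not, with 12 to 40 reads per sample, and exons of other genes covered 57.0% of its own. Cytosolic enzymes were the more abundant, with a median level of 29.7 FPKM in DMSO against 6.90 FPKM for mitochondrial ones. IARS2 was the exception among the latter, at 43.4 ± 1.09 FPKM in DMSO, above its cytosolic counterpart IARS at 23.6 ± 0.438 FPKM. In DMSO the highest cytosolic means were those of WARS, at 72.5 ± 9.49 FPKM, and AARS, at 67.6 ± 1.87 FPKM, which differed by less than the spread of WARS. After the combination AARS was the highest at 76.1 ± 3.76 FPKM and WARS had dropped to rank 19 of 20, above CARS alone.

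**Figure D1:**
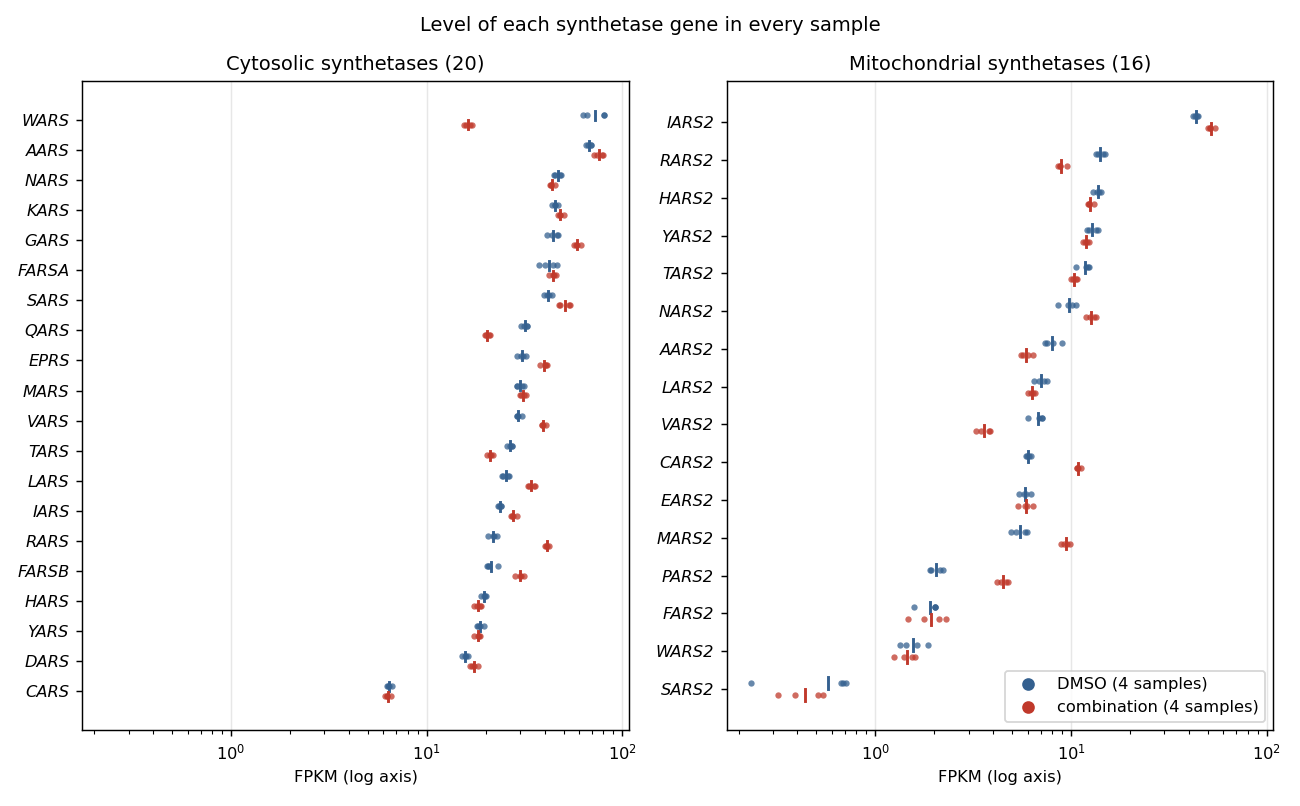
FPKM of the 36 synthetase genes in every sample, on a log axis, cytosolic on the left and mitochondrial on the right, ordered by DMSO mean. Points are samples (4 DMSO in blue, 4 combination in red) and vertical ticks are means. WARS moves from the top of the cytosolic genes, at 63.0 to 80.8 FPKM, to 15.6 to 17.1 FPKM, and RARS has the largest increase among cytosolic genes, from 20.5 to 23.0 FPKM to 40.3 to 42.3 FPKM.

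Cytosolic synthetase genes were called higher more often than lower, by small changes. Of 20 tested, 11 were called higher, where 36.9% of all genes were, and 5 were called lower, where 41.0% of all genes were, and 4 were not called. The cytosolic genes called higher numbered 9 with library totals and with voom, and 15 with upper-quartile scaling. Of 15 mitochondrial genes tested, 5 were called higher, 6 lower and 4 not called. The median log2 fold change was 0.11 for cytosolic and -0.07 for mitochondrial genes, beside -0.03 for all genes tested, and the mitochondrial median turned slightly positive with upper-quartile scaling (0.031) and quantile normalization (0.022). The changes were small, with a median size of 0.25 on the log2 scale over the 35 genes tested against 0.44 over all genes. WARS was the only one of the 35 called with a fitted change of at least 2-fold, against 19.9% of all genes, while PARS2 passed 2-fold with a pseudocount of 0.1 (log2 fold change 1.11) and with voom (1.07), and RARS with upper-quartile scaling (1.02). Groups did not overlap for 22 of the 35, against 72.7% of all genes. The 27 calls among 35 genes compare with 77.8% called over all genes, so that being called is not particular to synthetases.

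**Figure D2:**
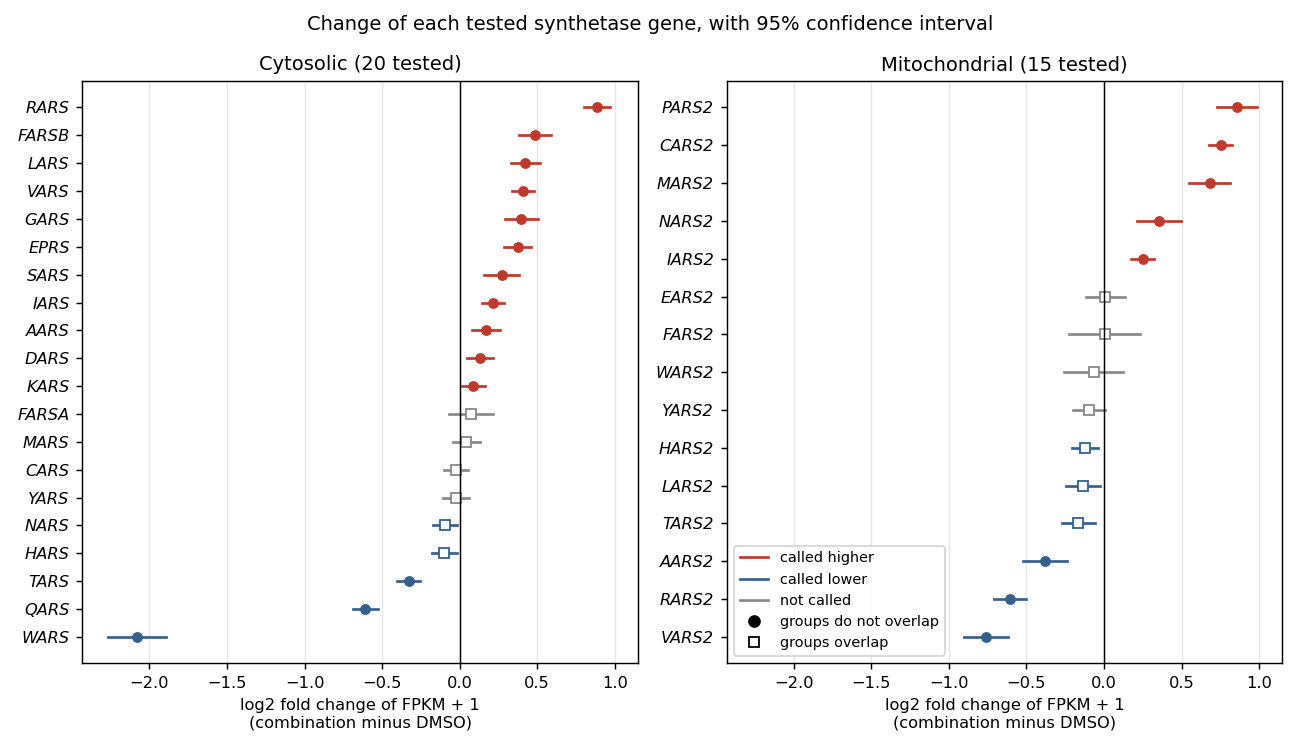
Log2 fold change of FPKM + 1, combination minus DMSO, for the 20 cytosolic and 15 mitochondrial genes tested, with 95% confidence intervals from limma. Red and blue are genes called higher and lower, grey not called, and open squares mark genes whose groups overlap. All values but that of WARS (-2.08) lie between -1 and 1.

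WARS, which charges tryptophan tRNA, showed the largest decrease (chromosome 14, 100333788 to 100376805, minus strand, GRCh38). The DMSO samples 1 to 4 stood at 80.6, 65.8, 63.0 and 80.8 FPKM, and the combination samples at 15.9, 15.6, 17.1 and 16.6 FPKM. Every combination sample was below every DMSO sample, and DMSO samples 1 and 4 were the higher pair. The mean was 4.45 times as high in DMSO, with a fitted log2 change of -2.08 ± 0.0837 (SE) and an adjusted p = 1.63e-08 (limma with Benjamini-Hochberg adjustment). Without WARS the other 19 cytosolic genes had a median of 0.13, and their summed level was 666 ± 16.1 against 589 ± 11.99 FPKM. With WARS the sums overlapped, at 683 ± 16.8 against 661 ± 21.2 FPKM.

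The interferon-responsive genes listed beside WARS were mostly lower too. Of 7 tested, 6 were called lower, where 41.0% of all genes were, and 1 was not called. Their median log2 fold change was -1.48. HLA-E, a class I antigen-presenting molecule, stood at 41.1 ± 1.78 against 106 ± 10.9 FPKM. IRF1, a transcription factor that activates WARS, was not called, at 5.06 ± 0.610 against 4.35 ± 0.782 FPKM (adjusted p = 0.142, limma with Benjamini-Hochberg adjustment), but was called higher with upper-quartile scaling, with quantile normalization and without DMSO sample 4 (adjusted p = 0.0136 in limma). Within DMSO, 8 of the 10 listed genes had their highest values in samples 1 and 4, the same pair as WARS. That pair was not particular to these genes. Among the synthetases it was also the highest for AARS, LARS, MARS, NARS, TARS, FARSA, FARSB, FARS2 and LARS2, and the remaining members had another pair. The share of all genes with that highest pair was not counted. The 8 interferon genes include IRF1, which was not called, and GBP4, which was not tested. WDR25, whose start lies 387 bases from that of WARS on the other strand, moved the other way, at 2.04 ± 0.248 against 1.52 ± 0.161 FPKM (called higher). Antisense genes cover 10.6% of the exon length of WARS, and the sources used here do not say whether the libraries kept strand.

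**Figure D3:**
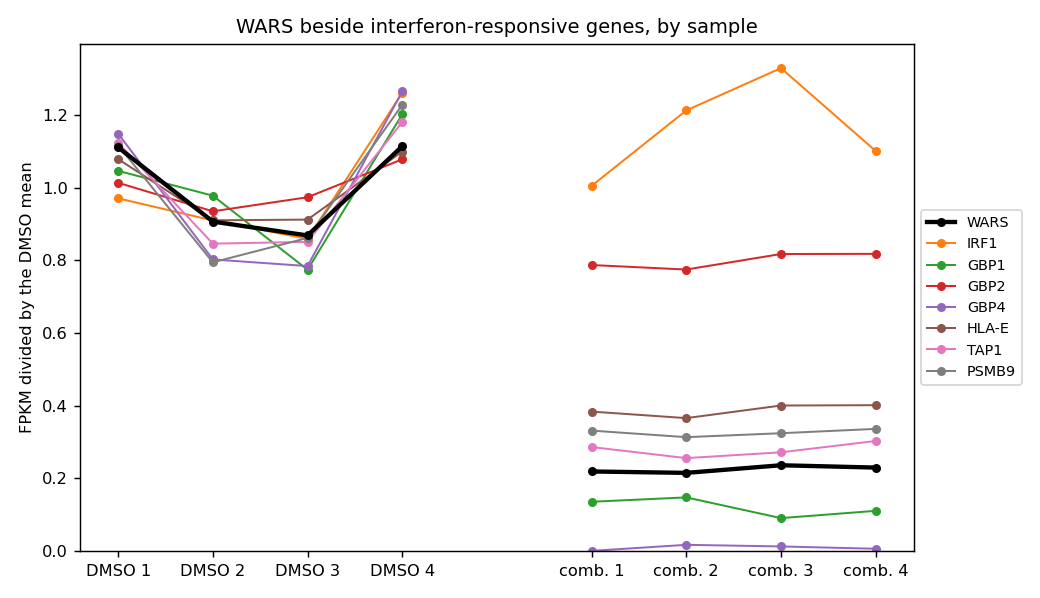
Level of WARS and of 7 interferon-responsive genes in each sample, as FPKM divided by the gene's DMSO mean. Points are samples and lines only join the points of a gene within a group. WARS (black) stands at 0.215 to 0.236 of its DMSO mean after the combination, below HLA-E at 0.366 to 0.401, while IRF1 stands at 1.005 to 1.33.

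RARS, the arginine enzyme of the multisynthetase complex, rose most among cytosolic genes (chromosome 5, 168486445 to 168519299, plus strand). Its DMSO samples stood at 23.0, 22.1, 20.5 and 21.8 FPKM and its combination samples at 40.3, 41.2, 40.9 and 42.3 FPKM. The groups were far apart, with a fitted log2 change of 0.89 ± 0.0373 (SE) and an adjusted p = 2.22e-08 (limma with Benjamini-Hochberg adjustment) and a ratio of means of 1.88.

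FARSB, the beta subunit of phenylalanine tRNA synthetase, had 23.0, 20.4, 20.7 and 20.8 FPKM in DMSO and 30.1, 28.4, 30.3 and 31.5 FPKM after the combination. All combination samples were higher (log2 fold change 0.48). FARSA, the alpha subunit of the same enzyme, overlapped between groups, at 44.2 ± 1.44 against 42.2 ± 3.98 FPKM, with a 95% interval of the log2 fold change from -0.07 to 0.21. The subunits' intervals did not overlap, as that of FARSB ran from 0.38 to 0.59.

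LARS, the leucine enzyme, which also acts as a leucine sensor for mTORC1, stood at 32.7, 35.2, 33.4 and 35.7 FPKM against 26.3, 24.2, 24.6 and 26.1 FPKM in DMSO. VARS, for valine, stood at 38.8, 39.2, 40.5 and 39.0 FPKM against 28.8, 29.4, 28.8 and 30.7 FPKM. Neither gene's groups overlapped, and the log2 fold changes were 0.42 and 0.41. GARS, which charges glycine tRNA in both compartments, stood at 56.3, 58.1, 58.7 and 61.5 FPKM against 43.5, 46.8, 40.9 and 46.2 FPKM in DMSO, again without overlap (log2 fold change 0.40).

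Smaller increases were called for EPRS, the fused glutamate and proline enzyme (0.37), SARS for serine (0.27), IARS for isoleucine (0.21), AARS for alanine (0.17), DARS for aspartate (0.13) and KARS for lysine (0.09), as log2 fold changes. No groups overlapped among them. The call of DARS was lost with library total scaling and with voom. KARS was lost with those settings and when any of combination samples 3 and 4 or DMSO samples 2, 3 and 4 was left out (adjusted p = 0.0505 to 0.0755 in limma with Benjamini-Hochberg adjustment).

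Apart from WARS, clear decreases among cytosolic genes were found for QARS and TARS. QARS, the glutamine enzyme and a member of the multisynthetase complex (chromosome 3, 49095932 to 49105135, minus strand), stood at 30.2, 32.6, 32.6 and 31.6 FPKM in DMSO and at 19.8, 21.1, 20.8 and 20.03 FPKM after the combination. All 4 combination samples were lower, with a fitted log2 change of -0.61 ± 0.0358 (SE) and an adjusted p = 2.24e-07 (limma with Benjamini-Hochberg adjustment). TARS, for threonine, went from 27.4, 26.5, 25.8 and 27.2 FPKM to 20.3, 21.3, 21.7 and 21.1 FPKM, without overlap (log2 fold change -0.33).

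HARS for histidine and NARS for asparagine were called lower at a log2 fold change of -0.10 each, with overlapping groups. The HARS samples ran from 17.5 to 18.9 FPKM after the combination and from 18.9 to 20.1 FPKM in DMSO. Both calls were lost with median-of-ratios, upper-quartile and nuclear read scaling, and their sign turned with upper-quartile scaling, that of HARS also with quantile normalization. HARS lost its call without combination sample 1 or 2 or DMSO sample 1, 2 or 3 (adjusted p = 0.0564 to 0.0721), and NARS without combination sample 1, 2 or 4 or DMSO sample 1 or 4 (adjusted p = 0.0556 to 0.0804, limma with Benjamini-Hochberg adjustment). CARS for cysteine, MARS for methionine and YARS for tyrosine were not called, with 95% intervals of the log2 fold change of -0.10 to 0.05, -0.05 to 0.13 and -0.11 to 0.06. With upper-quartile scaling these 3 genes and FARSA were called higher, CARS and MARS also with quantile normalization, and MARS also with median-of-ratios and nuclear read scaling. YARS was called lower with library totals and with voom.

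Among mitochondrial enzymes PARS2, for proline, rose most (chromosome 1, 54756898 to 54764514, minus strand). It stood at 2.21, 1.90, 2.14 and 1.92 FPKM in DMSO and at 4.17, 4.78, 4.40 and 4.68 FPKM after the combination. The groups were well separated, and the ratio of means was 2.21, on 71 to 192 reads per sample. The fitted log2 change was 0.86 ± 0.0573 (SE), with an adjusted p = 5.69e-07 (limma with Benjamini-Hochberg adjustment).

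CARS2, the mitochondrial cysteine enzyme, stood at 5.97, 6.10, 5.92 and 6.22 FPKM in DMSO and at 10.9, 10.7, 11.2 and 10.7 FPKM after the combination. MARS2, for methionine, stood at 5.83, 4.94, 5.93 and 5.24 FPKM in DMSO and at 8.85, 9.92, 9.57 and 9.24 FPKM after it. In both the groups stood apart, with log2 fold changes of 0.75 and 0.68. Their cytosolic counterparts CARS and MARS were among the genes not called.

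NARS2, for asparagine, had 8.59, 10.6, 9.61 and 10.1 FPKM in DMSO and 13.4, 12.5, 13.1 and 11.9 FPKM after the combination. For IARS2, for isoleucine, the samples stood at 44.0, 43.2, 44.5 and 42.0 FPKM in DMSO and at 51.3, 50.1, 51.4 and 54.5 FPKM after it. Each combination sample exceeded each DMSO sample, and the log2 fold changes were 0.36 and 0.25. All 5 of these mitochondrial increases were called in every alternative in which the gene was tested (PARS2 fell below the filter of a mean of 5 FPKM).

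VARS2, the mitochondrial valine enzyme, had the largest mitochondrial decrease (chromosome 6, 30908242 to 30926459, plus strand). Its samples stood at 7.13, 6.84, 7.11 and 6.01 FPKM in DMSO and at 3.80, 3.27, 3.48 and 3.83 FPKM after the combination. All combination samples were lower, with a fitted log2 change of -0.76 ± 0.0627 (SE) and an adjusted p = 2.70e-06 (limma with Benjamini-Hochberg adjustment). Of its exon length 22.0% is shared with GTF2H4 on the same strand. Reads there may be counted for either gene or for neither, which was not tested. The elongation factor gene EEF1G, with 99.9% of its exon length overlapped on its own strand, had 0 reads in every sample.

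RARS2, for arginine, went from 13.4, 13.7, 14.8 and 14.6 FPKM in DMSO to 8.77, 9.58, 8.60 and 8.80 FPKM. AARS2, for alanine, went from 7.57, 7.35, 8.12 and 8.97 FPKM to 5.56, 5.70, 6.02 and 6.36 FPKM. Neither overlapped, and the log2 fold changes were -0.60 and -0.38. ORC3, which starts 64 bases from RARS2 on the other strand, was not called, at 7.66 ± 0.824 against 7.51 ± 0.816 FPKM.

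HARS2, LARS2 and TARS2 were called lower by log2 fold changes of -0.12, -0.13 and -0.17, with overlapping groups, and each call was lost under at least 2 of the other scalings. HARS2 turned sign with upper-quartile scaling and quantile normalization. Its start lies 436 bases from that of HARS on the other strand, and both histidine enzymes were called lower under the deposited scaling. The 2 genes overlap, with 11.7% of the exon length of HARS2 covered by HARS and 5.6% of that of HARS by HARS2. The call of LARS2 was also lost without combination sample 2 or 4 or DMSO sample 1 or 4 (adjusted p = 0.059 to 0.0779, limma with Benjamini-Hochberg adjustment). EARS2, FARS2, WARS2 and YARS2 were not called. The interval of FARS2 reached from -0.23 to 0.23, and YARS2 was called lower with library totals, with voom and when DMSO sample 3 was left out (adjusted p = 0.0364 in limma without that sample, against 0.0867 with all).

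Cytosolic and mitochondrial enzymes for the same amino acid were compared within each sample, where differences of scaling between libraries hardly enter. Of 17 pairs, 5 had both genes called in opposite directions (AARS and AARS2, LARS and LARS2, NARS and NARS2, RARS and RARS2, VARS and VARS2) and 4 had both called in the same direction. The opposite calls fell to 3, for alanine, arginine and valine, with median-of-ratios, upper-quartile and nuclear read scaling and without combination sample 2 or 4 or DMSO sample 1 or 4. The log2 ratio of cytosolic to mitochondrial enzyme did not overlap between groups for 11 pairs, with 6 higher and 5 lower after the combination. For single genes, the groups did not overlap for 72.7% of all genes tested, and no such share was taken for ratios. The pairs are not separate, as EPRS enters those for glutamate and proline, and FARS2 those with FARSA and FARSB.

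The pair for arginine moved furthest toward the cytosol, from a log2 ratio of 0.60 ± 0.131 in DMSO to 2.09 ± 0.0656. Valine followed, from 1.97 ± 0.143 to 3.14 ± 0.1003. Leucine (a difference of 0.56 in the log2 ratio), alanine (0.55), FARSB to FARS2 (0.48) and EPRS to EARS2 (0.36) moved the same way. Toward mitochondria moved tryptophan, from 4.84 ± 0.229 to 2.82 ± 0.103, then cysteine (-0.78), methionine (-0.64), EPRS to PARS2 (-0.49) and asparagine (-0.45). With a pseudocount of 5 the differences for methionine (-0.42) and EPRS to PARS2 (-0.10) were over 1.5 times smaller. For cysteine the order reversed, as CARS was slightly above CARS2 in DMSO (0.04 to 0.10) and below it after the combination (-0.75 to -0.64).

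**Figure D4:**
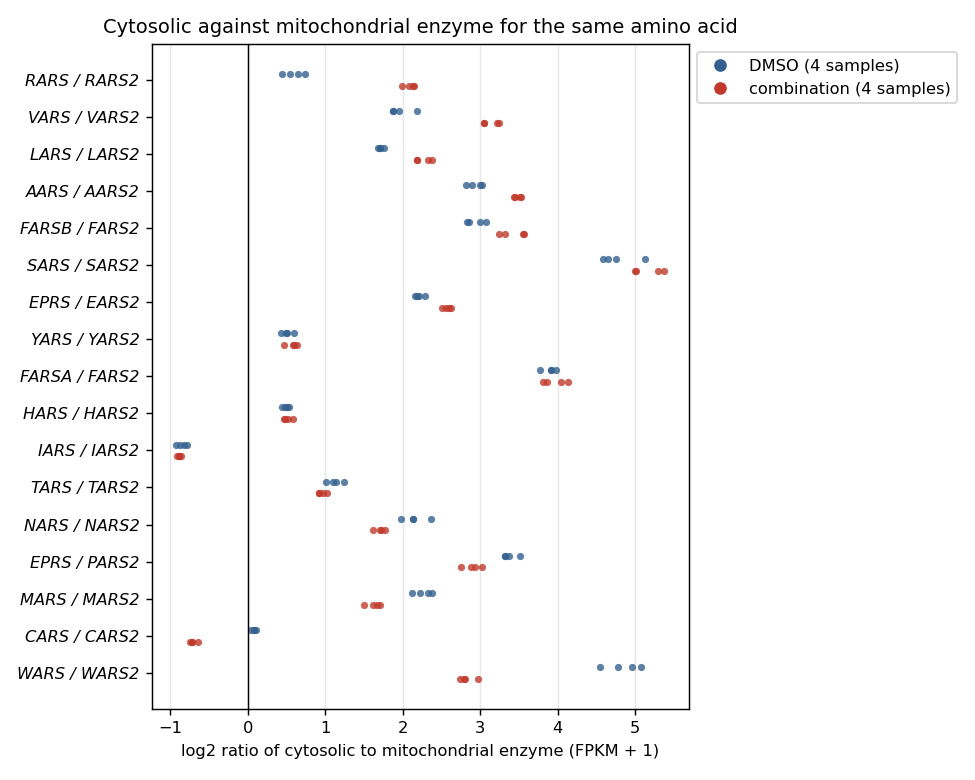
Log2 ratio of cytosolic to mitochondrial synthetase (FPKM + 1) for 17 pairs in every sample, ordered by the difference between groups. Points are samples, 4 DMSO (blue) and 4 combination (red). Arginine at the top shifts from 0.44 to 0.74 up to 1.996 to 2.14, and tryptophan at the bottom from 4.55 to 5.07 down to 2.73 to 2.97.

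Grouping the enzymes by what they share gave no uniform direction. Of the 8 enzymes of the multisynthetase complex, 6 were called higher, QARS lower and MARS was not called (median log2 fold change 0.17). The number called higher was 4 with library totals and with voom, and 7 with upper-quartile scaling and quantile normalization. Over all genes 36.9% were called higher and 41.0% lower. The scaffolds split, with EEF1E1 higher at 4.89 ± 0.246 against 3.75 ± 0.802 FPKM, and AIMP1 (12.3 ± 0.409 against 14.7 ± 0.291 FPKM) and AIMP2 (12.5 ± 0.875 against 15.4 ± 0.795 FPKM) lower. The call of EEF1E1 was lost with library totals, without the filter on low values and without combination sample 1 or 3 (adjusted p = 0.0544 to 0.0657, limma with Benjamini-Hochberg adjustment). Exons of EIF2AK1 cover 28.9% of AIMP2, whose value is less certain for it. Class I synthetases, whose catalytic domain is a Rossmann fold, had 8 higher and 5 lower of 19. EPRS, the fused glutamate and proline enzyme, was counted in class I alone. Class II synthetases, built on an antiparallel sheet, had 8 higher and 6 lower of 16 tested (6 and 6 with library totals, 9 and 2 with upper-quartile scaling).

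The 13 cytosolic genes often counted among ATF4 targets had 7 higher, 3 lower, WARS among them, and 3 not called. The 7 others had 4 higher, 2 lower and 1 not called. Of these 7 other genes, 2 were higher with library totals and with voom. Only 1 was lower with the 4 other scalings, with the replicate block and when any of combination samples 1 and 2 or DMSO samples 1, 2 and 3 was left out. Of the 8 genes with a CARE match, AARS, GARS and IARS were called higher, NARS and TARS lower, and CARS, MARS and YARS2 were not called. Of the 6 genes with an NRF1 match, 5 were called higher and TARS lower, and of the 4 with an E-box, IARS, CARS2 and MARS2 were called higher and EARS2 was not called. These counts are small and were read with the calls already known. The shares over all genes were 36.9% called higher and 41.0% called lower.

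The amino acid response from GCN2 to ATF4 had 5 genes higher, 12 lower (54.5%, beside 41.0% of all genes) and 5 not called of 22, with 8 higher under upper-quartile scaling and quantile normalization. ATF4 itself stood at 120, 122, 125 and 130 FPKM after the combination against 193, 210, 192 and 198 FPKM in DMSO. All combination samples were lower (log2 fold change -0.67), although ATF4 is mainly controlled by translation, which was not measured. EIF2AK4, the gene of GCN2, was not called, at 12.3 ± 0.339 against 12.3 ± 0.209 FPKM, though called higher with upper-quartile scaling and quantile normalization.

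Targets of ATF4 in that list split. The stress factor DDIT3 (29.8 ± 1.91 against 22.2 ± 0.708 FPKM), the asparagine synthetase ASNS (1.47 ± 0.237 against 0.852 ± 0.0719 FPKM) and the secreted glycoprotein STC2 (15.7 ± 0.154 against 4.82 ± 0.389 FPKM) were higher, as was the transcription factor CEBPB (207 ± 8.34 against 88.2 ± 8.95 FPKM). DDIT3 lies next to MARS on the opposite strand, and MARS exons cover 27.2% of it. Other genes cover 44.6% of ASNS and 23.7% of ATF5. The glutathione-degrading enzyme CHAC1 (2.22 ± 0.465 against 3.39 ± 0.545 FPKM), ATF5 (1.599 ± 0.0562 against 8.89 ± 0.591 FPKM) and the serine synthesis enzyme PHGDH (10.6 ± 0.334 against 26.2 ± 0.609 FPKM) were lower. TRIB3 was not called (adjusted p = 0.141, limma with Benjamini-Hochberg adjustment), but was called lower with library totals, with voom and without DMSO sample 3 (adjusted p = 0.046 in limma). MYC, whose product binds E-boxes, stood at 81.3 ± 3.78 against 10.6 ± 0.890 FPKM, and in its list of 7 genes MXI1 (11.6 ± 0.371 against 5.71 ± 0.549 FPKM) was higher and MXD3 (1.58 ± 0.270 against 11.3 ± 0.450 FPKM, 40.4% of its exon length overlapped) lower.

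Elongation factors take charged tRNA to the ribosome. Of 6 cytosolic elongation factors tested, 4 were higher and 1 lower (median log2 fold change 0.47), beside 36.9% higher and 41.0% lower over all genes. EEF2, which translocates the ribosome, stood at 593 ± 20.4 against 369 ± 8.56 FPKM. EEF1A2, the neuron and muscle form of the factor that delivers charged tRNA, rose to 17.5 ± 0.492 from 2.01 ± 0.375 FPKM. EEF1B2, which recharges that factor with GTP, fell to 38.8 ± 2.57 from 86.1 ± 4.69 FPKM.

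Of 11 mitochondrial translation factors tested, 6 were higher and 2 lower (median log2 fold change 0.41), beside 36.9% higher and 41.0% lower over all genes. TUFM, the mitochondrial factor that delivers charged tRNA, stood at 175 ± 9.31 against 110 ± 2.10 FPKM, and GFM2, which acts in ribosome recycling, at 13.8 ± 0.140 against 7.29 ± 0.253 FPKM. C12orf65, which rescues stalled mitochondrial ribosomes, fell to 2.80 ± 0.407 from 8.31 ± 0.415 FPKM, and the release factor MTRF1L was lower as well (34.8% of its exon length overlapped). Of the transamidase that completes mitochondrial glutamine tRNA, GATB (2.91 ± 0.160 against 1.63 ± 0.0834 FPKM) and GATC (4.79 ± 0.262 against 3.40 ± 0.396 FPKM, 47.6% of its exon length overlapped) were higher. QRSL1, the other subunit, was not called (adjusted p = 0.169, limma with Benjamini-Hochberg adjustment), as was EARS2, which feeds it.

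Of 32 genes that make and modify tRNA, 16 were higher, 7 lower and 9 not called (median log2 fold change 0.16). The shares over all genes were 36.9% higher and 41.0% lower. POP5, a subunit of RNase P, stood at 16.2 ± 0.573 against 11.99 ± 0.572 FPKM, and ELAC2, which trims the 3′ end, at 14.8 ± 0.552 against 11.3 ± 0.444 FPKM. TRMU, which thiolates mitochondrial tRNA, fell to 6.22 ± 0.351 from 12.6 ± 0.268 FPKM, and QTRT1, which inserts queuine, to 4.37 ± 0.333 from 9.77 ± 0.504 FPKM. RNA polymerase III and its regulators, which transcribe tRNA genes, had 5 higher, 9 lower and 9 not called of 23. The share called lower, 39.1%, was near that of all genes, and the share called higher was 21.7%. With upper-quartile scaling 10 were higher and 7 lower, and with quantile normalization 11 and 7. GTF3C6, a subunit of the factor TFIIIC, fell to 5.29 ± 0.598 from 30.7 ± 1.70 FPKM and BRF1 to 2.03 ± 0.0536 from 3.36 ± 0.0507 FPKM, while GTF3A and POLR3A were higher.

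Among factors for mischarged tRNA, DTD2 (4.79 ± 0.504 against 3.47 ± 0.417 FPKM) was higher and DTD1 was not called. PTRH2, a peptidyl-tRNA hydrolase in the same list, was higher (13.0 ± 0.442 against 7.59 ± 0.391 FPKM). In the selenocysteine pathway, where a serine charged by SARS is converted on its tRNA, SECISBP2 was higher (6.03 ± 0.159 against 3.75 ± 0.287 FPKM), SEPHS1 lower (6.65 ± 0.228 against 12.9 ± 0.957 FPKM), and SEPSECS and SEPHS2 were not called, although SEPSECS was called higher with upper-quartile scaling and SEPHS2 lower with library totals and with voom.

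**Figure D5:**
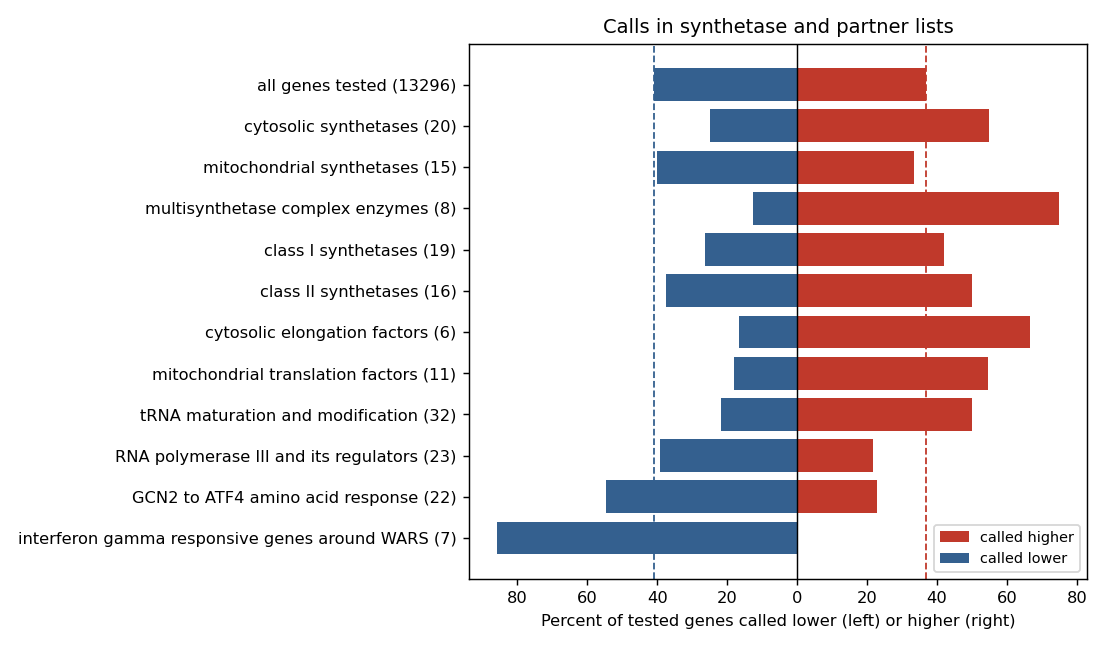
Percent of tested genes called higher (right, red) and lower (left, blue) in synthetase and partner lists, with the number tested in parentheses. Dashed lines mark all 13296 genes tested, 36.9% higher and 41.0% lower. Cytosolic synthetases stand at 55.0% higher and 25.0% lower, mitochondrial ones at 33.3% and 40%, and the interferon genes at 0% higher (1 gene, IRF1, higher with upper-quartile scaling).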

How the data were processed

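RNA sequencing libraries of 4 combination and 4 DMSO samples were analysed. The authors deposited 1 table of FPKM values, as its header names them. Bowtie 0.12.2 is named in the submitters' processing notes, as are the builds GRCh37 and mm8 (their roles are not stated), while all 58735 gene identifiers, coordinates and lengths equal those of GENCODE release 29 on GRCh38. Which tool counted the reads is not given in the sources used. FPKM times gene length was a whole multiple of 1 read for 100% of nonzero values (within 0.02), which gave back the reads, 15189251 to 17324292 per library. The divisor implied by the deposited values was 0.954 to 1.003 times the total in combination samples and 1.026 to 1.041 times in DMSO. At these depths 3 reads in a gene of 1 kb correspond to 0.173 to 0.197 FPKM (counting error only).

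limma 3.58.1 in R 4.3.3 fitted group alone, with a mean-variance trend, to log2(FPKM + 1) of genes averaging at least 1 FPKM. The model was tested on simulated data. Members and lists were chosen with earlier results of these data known, so lists are described by counts and medians without a test. Samples were grouped by their labels. Genes named outside the 36 members follow a rule that takes, from each partner list, up to 2 called genes of smallest p in each direction, or all members of lists with 5 or fewer tested genes, plus 9 fixed genes. Some results are not reported here. Neighbouring genes and cell markers were added by position and by type, and EEF1G for its overlap. Alternatives were 5 scalings (library total, median-of-ratios, upper-quartile, nuclear reads, quantile), pseudocounts of 0.1 and 5, no filter or a mean of 5 FPKM, voom on recovered reads, a replicate block and leaving out each sample. Promoter sequences came from RefSeq on GRCh38.p14. For 37 of 39 promoters the bases after the start were found on the gene's strand in GENCODE transcripts. Figures were drawn with matplotlib 3.10.9.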

Additional observations from a re-analysis of the deposited data

Results flagged for a closer look

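In 3 of 72 groups of 4 samples (36 genes in 2 groups), 1 sample stood so far from the others that its gap exceeded Dixon's 95% critical value, where chance gives about 1 group in 20. DMSO sample 1 was high for FARSB, at 22.99 FPKM with the other DMSO samples at 20.4 to 20.8 FPKM, and the call of FARSB held without it. DMSO sample 3 was low for FARS2, at 1.573 FPKM against 2.01 to 2.02 FPKM. DMSO sample 2 was low for SARS2, at 0.2327 FPKM against 0.666 to 0.712 FPKM, in a gene with 12 to 40 reads per sample.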

How the results depend on the processing

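Of 27 synthetase calls, 20 were made in the same direction under every alternative in which the gene was tested. The exceptions were DARS, KARS, HARS, NARS, HARS2, LARS2 and TARS2. The median log2 fold change of cytosolic genes (0.11) was 0.0416 with library totals, 0.16 with median-of-ratios, 0.24 with upper-quartile, 0.17 with nuclear read scaling and 0.0442 with voom, and that of mitochondrial genes (-0.07) was 0.0305 with upper-quartile scaling, 0.0224 with quantile normalization and -0.17 with voom. Cytosolic genes called lower numbered 3 in place of 5 with median-of-ratios, upper-quartile and nuclear read scaling, and 3 to 5 when 1 sample was left out. Mitochondrial genes called lower numbered 3 in place of 6 with upper-quartile scaling and quantile normalization. Among changes called in either setting, the sign turned for CARS (0.0921 and 0.10), HARS (0.0296 and 0.00965) and HARS2 (0.0021 and 0.0011) with upper-quartile scaling and quantile normalization in that order, and for NARS (0.035) and YARS (0.10) with upper-quartile scaling. Signs of changes called in neither setting turned for CARS, MARS, YARS, EARS2, FARS2, WARS2 and YARS2 under some alternatives. Upper-quartile scaling moved the median of all genes by 0.11, and the cause of the other shifts was not tested. Over all genes, 7747 were higher without a filter and 2821 higher and 3277 lower with the filter of 5 FPKM, against 4902 and 5445. With the replicate block, cytosolic genes called lower numbered 3, as HARS and NARS lost their calls, and KARS lost its own, while no other synthetase call changed. No pairing by number was seen, as the deviations of same-numbered samples correlated at -0.023 to 0.067 and those of others at -0.097 to 0.079. These correlations cannot show whether same-numbered samples were handled together. SARS2 could be tested only without the filter (adjusted p = 0.488, limma). Low read numbers limit FARS2, WARS2, PARS2 and SARS2.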
